A study of Mus musculus with 10 samples.

Results

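Among 32523 single cells from the mouse retina, 718 cells (2.21%) carried high levels of Tac1 without Npy. Tac1 encodes the precursor of substance P and neurokinin A, and Npy encodes neuropeptide Y. The cells were chosen by their UMIs (unique molecular identifiers, 1 for every RNA molecule captured). A member had Tac1 at 0.2% or more of its UMIs with at least 5 Tac1 UMIs, Npy below 0.1% of its UMIs, and no UMI of Slc6a9, the glycine transporter of glycinergic amacrine cells. Members were compared with cells of the same library that had at least 2 UMIs of Gad1 and Gad2 together, no Slc6a9 and Tac1 below 0.02% of UMIs, called Gad-gated Tac1-low cells below (13432 cells). A second reference was 219 cells that passed the same Tac1 gate with no Slc6a9 but with Npy at 0.2% or more and at least 5 Npy UMIs. Tac1, Npy, Slc6a9 and the Gad genes chose the cells, and Tpbg and Fgf7 were given as markers of the type, so their values between classes are descriptions without a test.

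The cells came from retinas of Chx10-cre-GFP mice at postnatal day 19. Dissociated cells were stained for CD133 and CD73, and those negative for GFP and for both antibodies but positive for Calcein Blue, a viability dye, were sorted and run on the 10x Genomics Chromium platform. By the labels, batch 1 was a single library, batch 2 held 5 and batch 3 held 4, with no treatment named. Whether libraries came from separate animals is not stated, so a p-value measures only how libraries varied, and that variation may be technical. A Chx10 reporter marks bipolar cells in the mature retina, so the sort was set against them as well as against photoreceptors, and an amacrine cell that carried GFP or an antigen would not be among these cells.

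Amacrine cells are interneurons of the inner retina, most of them inhibitory and releasing either GABA or glycine. Many GABAergic types also make a neuropeptide, and substance P is one of the classical retinal peptides; it acts through the receptor encoded by Tacr1, while neurokinin B, from Tac2, acts mainly through that encoded by Tacr3. Peptides are cut from their precursors and stored in dense-core vesicles, which are released apart from the small synaptic vesicles that hold GABA.

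Libraries held 950 to 4738 cells and 6302659 to 26028492 UMIs, with a median of 3296.5 to 5717 UMIs per cell. Each library had 22 to 134 members. Members had a median of 5602 UMIs, against 5271.5 in Gad-gated Tac1-low cells and 5972 in Tac1 cells with Npy. Of 31586 distinct barcodes, 923 occurred in more than 1 library. Among the members 48 had a barcode seen in another library, and 5 barcodes were shared by members of different libraries. No doublet caller was run, and 194 members (27.0%) had more than 2 times the median UMIs of their library, against 17.7% of Gad-gated Tac1-low cells.

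The label of the class was checked against marker lists. All 8 general amacrine markers were found in the members, at a summed level of 8475, 9120 and 10079 CPM (the UMIs of a gene in the class divided by all UMIs of the class in that library, times 1e6; lowest, median and highest library), against 9603, 10218 and 10844 CPM in Gad-gated Tac1-low cells. The largest part was Snhg11, at 5105.5 CPM in pooled members against 4710, and Gad1 and Gad2, also listed, chose the reference. Among the rest, Tfap2b (580 against 1261), Pax6 (798 against 1005), C1ql2 (808 against 910) and Tfap2a (154 against 178) were lower in pooled members. Slc32a1 (720 against 658) was higher. Of the members, 570 (79.4%) had at least 2 Gad UMIs, 70 had 1 and 78 had none. Marker lists of bipolar cells (157, 215 and 266 CPM in members against 242, 350 and 393) and Müller glia (589, 672 and 823 CPM against 1140, 1316 and 1514) had lower medians in members, as did the ganglion cell list (341, 452 and 543 CPM against 574, 599.9 and 630.1). No member had 1% or more of its UMIs from the bipolar, Müller glia, cone and ganglion cell lists together, and the highest had 0.979%. The other lists were not part of this sum. The microglial list was somewhat higher in members, at 22.2, 40.3 and 72.3 CPM against 15.5, 20.2 and 44.2 over 9 genes. With all members pooled, Cx3cr1 was at 23.1 CPM against 3.97 and C1qa at 1.58 against 0.208. C1qb and Tmem119 were each at 0.226 CPM, and C1qc, Ctss, P2ry12 and Csf1r had no UMI in members. The horizontal cell list stood at 347, 422 and 495 CPM against 359, 375 and 413 over 6 genes. Of these, Calb1 (170.9 CPM against 83.1) and Tpm3 (149 against 118) were higher in pooled members, Sept4 (91.2 against 169) and Onecut2 (3.85 against 4.53) were lower, and Lhx1 and Onecut1 were at 0 in members. The part of RNA from these other classes in the results was not tested.

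The members had a median Tac1 share of 0.405% of UMIs. At the threshold, 103 members lay between 0.20 and 0.25%, and 113 cells that met the other criteria lay just outside, between 0.15 and 0.20%. A further 54 cells reached 0.2% with fewer than 5 Tac1 UMIs, and 191 cells with high Tac1 and low Npy were left out for a UMI of Slc6a9, of which 141 had exactly 1. Npy was at 0 in 608 of the 718 members. In 4556 cells with Slc6a9 and no Gad UMI, at a median of 3664 UMIs, 5.49% had a Tac1 UMI and 18 met the Tac1 gate. The source of these UMIs (free RNA, doublets or the cells themselves) was not tested.

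Tac1 (GRCm38, chromosome 6, 7554879 to 7565834) stood at 4021, 4394 and 5276 CPM in members, at 3466, 3866 and 4728 CPM in Tac1 cells with Npy, and at 10.6, 14.0 and 15.4 CPM in Gad-gated Tac1-low cells. Tpbg (chromosome 9, 85842380 to 85847040), which encodes a cell surface glycoprotein that modulates Wnt signalling, stood at 789, 979 and 1177 CPM in members. It was at 15.1, 22.5 and 34.3 CPM in Gad-gated Tac1-low cells and at 0, 2.62 and 46.0 CPM in Tac1 cells with Npy. The lowest library of members was above the highest of either reference. Fgf7 (chromosome 2, 126034658 to 126091185), a secreted fibroblast growth factor, was lower in level, at 44.0, 66.6 and 159 CPM in members against 0.962, 2.73 and 4.51 CPM in Gad-gated Tac1-low cells. No Fgf7 UMI was found in the 219 Tac1 cells with Npy; with a floor of 3 counts over that group, the members' level was at least 33.9-fold higher. Fgf7 overlaps Fam227b and Tpbg overlaps 9330154J02Rik on the other strand, and the counting is not stated to use strand, so reads of these pairs cannot be told apart.

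**Figure D1:**
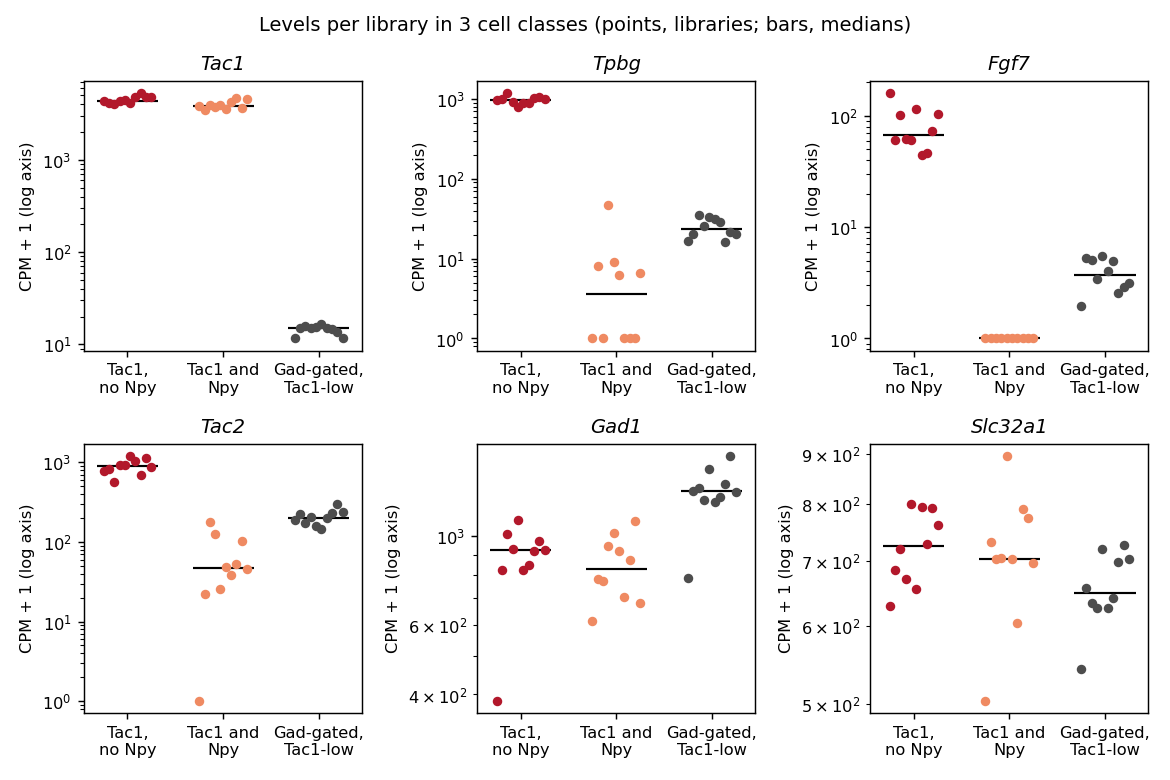
Level of 6 genes (CPM plus 1, log axis) in 3 cell classes; each point is 1 of 10 libraries and each bar the median. The summed levels of Tpbg and Fgf7, which were given as markers, are higher in members than in both references in every library, though many single members carry neither. Tac2 has its lowest median, 45.6 CPM, in Tac1 cells with Npy.

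Tpbg and Fgf7 were markers of some members, not of all. At least 2 Tpbg UMIs were found in 315 members, exactly 1 in 16 and none in 387. Across libraries, 31.8 to 55.3% of members were Tpbg-positive. A Tpbg UMI was present in 46.1% of members and, after each cell was thinned to 2000 UMIs (618 members left), in 43.4%. In cells with Slc6a9 and no Gad, which served as background, 0.834% had a Tpbg UMI and 0.110% an Fgf7 UMI, at a median of 3664 UMIs. In the 13432 Gad-gated Tac1-low cells, at a median of 5271.5 UMIs, the shares were higher. There 4.69% (630 cells) had a Tpbg UMI and 1.06% (142 cells) an Fgf7 UMI. Fgf7 was found in 163 of the 315 Tpbg-positive members (51.7%) and in 1 of the 387 without Tpbg (0.258%), at median depths of 6590 and 5061 UMIs. The Fgf7 share of all members was 23.3%, and 12.6% after thinning.

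Against Gad-gated Tac1-low cells, the members had higher Tac2, higher Crhr1 and Crhr2, and 11 of 21 dense-core vesicle genes higher. Tac2 and Crhr2 were high in only part of the members, as described below. The members had 7 of 9 other tested neuropeptides and 11 of 18 GABA and glycine receptor genes lower. Levels were summed per library and tested with edgeR's quasi-likelihood test, with the library as a block and Benjamini-Hochberg adjustment over all genes. Of 10170 genes tested, 1374 were higher in members (13.5%) and 1250 lower (12.3%), or 25.8% in either direction. These counts leave out Tac1, Npy, Gad1, Gad2, Tpbg and Fgf7. The median log2 difference over all genes tested was -0.01. With possible doublets left out 1680 genes were called, and with every cell thinned to 2000 UMIs 986.

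Tac2 (chromosome 10, 127724478 to 127731768), the neurokinin B precursor, stood at 556, 894 and 1197 CPM in members and at 145, 199 and 296 CPM in Gad-gated Tac1-low cells. Every library of members lay above every library of the reference, and the log2 difference was 2.19 (SE 0.07, edgeR adjusted p = 2.21e-29). A Tac2 UMI was found in 36.2% of members. In 9 libraries pooled, Tac2 was at 82.1 CPM in Tpbg-positive members and at 1636 CPM in those without Tpbg. The pooled reference stood at 198 CPM. Tacr3, the neurokinin B receptor, was lower (0, 0 and 8.83 CPM against 9.82, 11.3 and 13.9, log2 difference -3.07). Tacr1, the substance P receptor, had 51 UMIs in members, at 1.71, 12.1 and 20.7 CPM in members against 14.1, 17.9 and 22.8. The classes overlapped, and the log2 difference of -0.63 (SE 0.21, adjusted p = 0.0208) was not called with DESeq2 (-0.63, adjusted p = 0.0556), with Gad required in both classes (-0.49), in batch 3 alone (-0.36), with the looser gate (-0.38), or without library 4, 5 or 6 (-0.59, -0.45 and -0.57).

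Of 9 other neuropeptide genes tested, 7 were lower in members and 2 higher, with a median log2 difference of -1.71. Cartpt, which encodes the CART peptide, stood at 152, 321 and 512 CPM against 2183, 2897 and 3848 (log2 difference -3.07, SE 0.07, adjusted p = 7.46e-36). Vip, vasoactive intestinal peptide, was at 0, 9.46 and 133 CPM against 338, 442 and 758, and Cck, cholecystokinin, at 0, 11.8 and 28.4 against 67.0, 84.9 and 134. For these 3 peptides no library of members reached the lowest of the reference. The 2 higher genes were Nppc, a natriuretic peptide (6.62, 17.0 and 27.1 CPM against 0.994, 2.07 and 3.53), and Gal, galanin, whose classes overlapped (5.17, 20.3 and 59.0 CPM against 3.41, 6.22 and 15.2).

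Genes for peptide processing and dense-core vesicles were called in 15 of 21 tested, 11 higher and 4 lower, with a median log2 difference of 0.24. Chgb, chromogranin B, a main protein of the vesicle core, stood at 1091, 1392 and 1614 CPM against 492, 605 and 687 (log2 difference 1.24, SE 0.04, adjusted p = 4.66e-29). Rab27b, a GTPase that docks secretory vesicles, stood at 146, 204 and 272 CPM against 45.5, 53.4 and 63.5, and Pcsk2, a prohormone convertase, was higher by 1.28 on the log2 scale. The levels of these 3 genes did not overlap between the classes. Chgb and Rab27b were each high in only part of the members, Chgb in those with Tpbg and Rab27b in those without, as described below.

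Among 5 peptide receptor genes tested, 3 were higher in members. Crhr2 stood at 25.6, 45.0 and 75.8 CPM against 3.21, 4.50 and 6.83 (log2 difference 3.19, SE 0.18, adjusted p = 1.34e-20), and Crhr1 at 27.4, 34.0 and 38.8 against 3.29, 5.09 and 6.73. Both encode receptors for corticotropin-releasing hormone. In 9 libraries pooled, Crhr2 was at 93.8 CPM in Tpbg-positive members and at 6.23 CPM in those without Tpbg. The pooled reference stood at 5.25 CPM. Sstr2, a somatostatin receptor, was called higher by 0.44 with overlapping classes, but with possible doublets left out its value turned to -0.51 (adjusted p = 0.0564).

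GABA and glycine receptor genes were called in 13 of 18 tested, 11 lower and 2 higher, with a median log2 difference of -0.79. Gabrb1 stood at 8.51, 10.9 and 26.5 CPM in members against 39.9, 46.8 and 59.3 (log2 difference -1.92, SE 0.15, adjusted p = 6.16e-15). Gabra2 was at 23.2, 43.6 and 68.0 CPM against 116, 127 and 143; both encode subunits of the GABA-A receptor. No library of members reached the lowest of the reference for either. Glra2, a glycine receptor subunit, was among the 5 not called (67.2, 82.6 and 93.6 CPM against 31.1, 72.9 and 90.5).

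The vesicular transporter of GABA and glycine was at a similar level in both classes. Slc32a1 stood at 629, 723 and 799 CPM against 542, 648 and 725, a log2 difference of 0.16 (SE 0.04, adjusted p = 0.000452) that was not called in batch 3 alone, with possible doublets left out, after thinning or with no filter on low counts. Slc6a11, a plasma membrane GABA transporter, was lower, at 52.9, 78.4 and 118 against 164, 233 and 272. The reference was required to have Gad UMIs and the members were not, so Gad1 (384, 922 and 1098 CPM against 783, 1297 and 1592) and Gad2 (181, 287 and 379 against 266, 290.1 and 324) are described only.

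Among receptors for acetylcholine, monoamines and adenosine, 7 of 13 were higher and 3 lower. Adora1, the A1 adenosine receptor, stood at 73.1, 106 and 145 CPM in members against 11.7, 14.7 and 24.0, a log2 difference of 2.79 (SE 0.11, adjusted p = 3.17e-26). Htr2c, a serotonin receptor, was higher by 2.86 and Drd5, a dopamine receptor, by 2.35 on the log2 scale. Adora1 and Drd5 were uneven among members. In 9 libraries pooled, Adora1 was at 5.57 CPM in Tpbg-positive members and at 186 CPM in those without Tpbg, against 15.1 CPM in the pooled reference. Drd5 was at 290 CPM in sub-cluster 5, described below, and at 22.5 CPM in the other members pooled, against 9.48 CPM. Glutamate receptor genes were called in 11 of 19, 5 higher (among them the AMPA receptor subunit Gria3, by 0.79, and the NMDA receptor subunit Grin2a, by 0.75) and 6 lower (among them the metabotropic receptor Grm8, by 1.49 on the log2 scale).

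Release genes were called in 30 of 37 tested, 13 higher and 17 lower, with a median log2 difference of -0.04. Rims1, a scaffold of the active zone, stood at 19.9, 36.8 and 46.8 CPM against 90.9, 209.9 and 363 (log2 difference -2.61, SE 0.11). Unc13c, a vesicle priming factor, was lower (log2 difference -2.09), and Doc2b, a calcium sensor of vesicle fusion, was higher (2.64). Voltage-gated and leak channels were called in 34 of 51, 12 higher and 22 lower, led by Kcnab1, a potassium channel subunit, at 8.51, 16.2 and 44.1 CPM against 124, 157 and 172. Of 22 calcium-binding genes 8 were higher and 7 lower. Calb2, calretinin, stood at 1271, 2503 and 4589 CPM against 459.6, 818 and 1115 (log2 difference 1.81, SE 0.15), and the classes did not overlap. Calb2 was uneven among members, at 14002 CPM in 1 group of 73 cells (sub-cluster 6, described below). The other members pooled stood at 1038 CPM, against 789 CPM in the pooled reference.

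Of 57 transcription factor genes tested, 13 were higher and 28 lower, with a median log2 difference of -0.30. Lhx2, a LIM homeobox gene, stood at 38.8, 74.3 and 131 CPM in members against 6.89, 10.4 and 13.2 (log2 difference 2.89, SE 0.13). Nr4a2, a nuclear receptor gene, was lower at 0, 3.50 and 33.1 CPM against 84.2, 94.3 and 109. Isl1, a LIM homeobox gene used by starburst amacrine cells, was at 0, 6.70 and 13.5 CPM against 22.6, 57.6 and 88.8. Eomes, a T-box gene, was higher by 2.04 on the log2 scale. It was at 471 CPM in sub-cluster 5, described below, and at 18.5 CPM in the other members pooled. Recognition and adhesion genes were called in 58 of 88, 27 higher and 31 lower. C1ql3, a secreted synaptic organiser, stood at 63.8, 145 and 175 CPM against 8.36, 17.4 and 26.5, whereas Cbln1, another, was at 0, 0 and 8.54 against 35.7, 41.4 and 55.8. Cbln1 overlaps Gm2694, which was also lower (log2 difference -3.17), so their reads cannot be told apart.

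The remaining lists were smaller. Of 20 growth factor and Wnt genes, not counting Tpbg, 7 were higher and 9 lower. Sfrp1, a secreted Wnt antagonist, stood at 29.8, 44.1 and 61.6 CPM against 4.39, 5.49 and 6.95 (log2 difference 2.95). Among the lower ones, Igfbp4, an insulin-like growth factor binding protein, was at 0, 3.52 and 17.3 CPM against 64.2, 75.3 and 99.8. Of 7 fibroblast growth factor genes, other than Fgf7, Fgf13 and Fgf14 were higher and Fgf9, Fgf11 and Fgf12 lower. Fgf9 was lower by 1.25 and Fgf12 by 0.47 on the log2 scale, and Fgf12 was not called after thinning (-0.38, adjusted p = 0.0559). Th, tyrosine hydroxylase of dopamine synthesis, was higher by 2.62 with overlapping classes (8.54, 33.6 and 105 CPM against 2.77, 5.74 and 8.65). Among members, Th was at 245 CPM in sub-cluster 6, described below, and at 7.96 CPM in the other members pooled. The pooled reference was at 5.85 CPM. Of the other catecholaminergic markers, over all cells of each class pooled, the dopamine transporter Slc6a3 was at 6.79 CPM against 0.26, the vesicular transporter Slc18a2 at 5.43 against 8.38, and the enzyme Ddc at 0 against 0.117.

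Immediate early genes, which respond to activity and to handling, were called higher in 12 of 15, with none lower. Jun stood at 183, 293 and 447 CPM in members against 80.2, 115 and 177, a log2 difference of 1.38 (SE 0.06). Fos was not called (298, 530.5 and 743 CPM against 394, 583 and 673). Their part in the other differences was not tested.

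The 12 largest increases and 8 largest decreases with the same sign in all 10 libraries included genes outside these lists. Crym (chromosome 7, 120186380 to 120202111), a thyroid hormone binding protein, stood at 33.6, 88.4 and 119 CPM against 6.32, 8.30 and 14.0, a log2 difference of 3.11 (SE 0.17, adjusted p = 1.85e-21). RP23-366O14.4, a transcript with no record in the annotation used, was at 111, 179 and 213 against 17.5, 19.7 and 24.7. In 9 libraries pooled, Tpbg-positive members had Crym at 167 CPM and RP23-366O14.4 at 314 CPM. Those without Tpbg were at 4.01 and 24.0 CPM, against 9.60 and 20.3 CPM in the pooled reference. Tnfrsf12a, Hmcn1, Tmem163, Ctxn1 and Ptgds were higher by 2.78, 2.76, 2.67, 2.54 and 2.51. Among the decreases, the noncoding gene Pantr1 stood at 0, 2.93 and 14.2 CPM against 79.3, 106 and 128 (log2 difference -4.08, SE 0.19), and Sox5, Gfra1 and Hpgd differed by -3.49, -3.37 and -3.17.

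**Figure D2:**
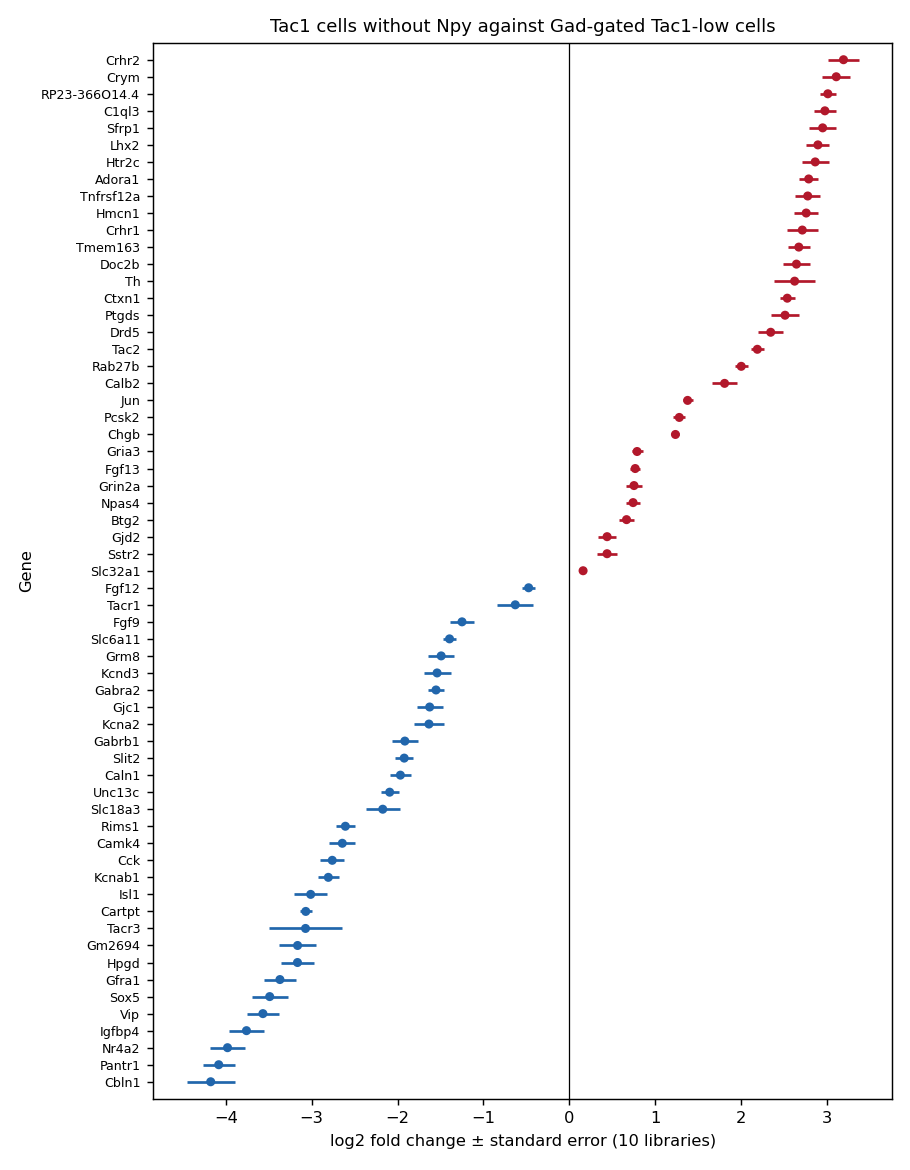
Log2 fold change between members and Gad-gated Tac1-low cells (x axis, positive is higher in members; bars, standard error; 10 libraries) for the genes named by rule, without those used to choose the cells or given as markers. Of the genes drawn, Crhr2 is highest at 3.19 and Cbln1 lowest at -4.18.

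Members and Tac1 cells with Npy shared a similar Tac1 level and differed in calretinin, Tac2, adhesion genes and transcription factors. Of 3521 genes tested, 258 were higher in members (7.33%) and 270 lower (7.67%), or 15% in either direction; DESeq2 called 325. The higher genes include Tpbg, which is described above and not read as a result here. Tac2 stood at 556, 894 and 1197 CPM in members against 0, 45.6 and 178 in Tac1 cells with Npy (log2 difference 3.86, SE 0.15, adjusted p = 9.52e-29). Calb2 was at 1271, 2503 and 4589 CPM against 58.4, 94.2 and 185, a log2 difference of 4.74 (SE 0.11). For both genes the lowest library of members lay above the highest library with Npy. Not all members had high Tac2 or Calb2. Tac2 was at 82.1 CPM in pooled Tpbg-positive members (9 libraries), against 62.3 CPM in pooled Tac1 cells with Npy. Sub-clusters 3, 8 and 9, described below, had Calb2 at 128, 97.5 and 106 CPM, against 100 CPM in pooled Tac1 cells with Npy.

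Reln, which encodes the secreted protein reelin, stood at 129.8, 185 and 232 CPM against 0, 20.4 and 51.6, and Igfbp7 at 56.7, 126 and 278 against 0, 13.7 and 52.6. Igfbp7 was at 1810 CPM in sub-cluster 4, described below, and at 35.0 CPM in the other members pooled. Pooled Tac1 cells with Npy were at 16.7 CPM. Mxra7 was higher by 2.73 and RP23-366O14.4 by 3.09 on the log2 scale. Chgb, in the dense-core vesicle list (6 of 16 higher, 2 lower), stood at 1091, 1392 and 1614 CPM against 199, 268 and 343, and Pcsk2 at 128, 199 and 357 against 7.38, 31.6 and 81.3. In the opposite direction Syt4, a synaptotagmin, was at 92.6, 157 and 227 CPM against 267, 365 and 459.9.

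Among 22 transcription factor genes tested, 7 were higher and 11 lower in members. Nfia, a nuclear factor I gene, stood at 0, 9.19 and 18.4 CPM against 111, 156 and 424, a log2 difference of -4.26 (SE 0.20, adjusted p = 7.58e-25). Maf, a leucine zipper gene, was lower by 2.83 with overlapping classes, and Fezf2, a zinc finger gene, was lower by 2.12 with classes apart. Lhx9 was higher (56.9, 94.8 and 108 CPM against 0, 23.3 and 83.7). Of 38 recognition and adhesion genes 10 were higher and 10 lower. Lrrtm1, a postsynaptic organiser, stood at 14.7, 24.9 and 41.0 CPM against 105, 213 and 394, and Cbln4 at 12.8, 22.7 and 59.0 against 83.7, 171 and 246. Serpine2, a secreted protease inhibitor, Dact2, a Wnt pathway modulator, and Steap2, a metalloreductase, were lower by 2.43, 2.30 and 2.22 on the log2 scale. Lrrtm1 overlaps Ctnna2, and reads of the pair cannot be told apart.

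Gad2 stood at 181, 287 and 379 CPM in members against 65.7, 146 and 203, and Gad1 at 384, 922 and 1098 against 609.9, 825 and 1095; neither class was chosen by Gad. Gad2 was called (log2 difference 0.94, SE 0.12, adjusted p = 2.45e-09) and Gad1 was not (adjusted p = 0.642). In 9 libraries pooled, Gad2 was at 426 CPM in Tpbg-positive members and at 160 CPM in those without Tpbg. Pooled Tac1 cells with Npy had Gad2 at 140 CPM. Slc32a1 differed by 0.00 on the log2 scale (adjusted p = 0.992). Of 11 immediate early genes tested, 6 were lower in members and 1 higher, Junb by -0.85 and Egr4 by -1.13. Their part in the other differences was not tested.

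Within the members, Fgf7, Crym and Crhr2 went with Tpbg, and Tac2, C1ql3 and Adora1 were found mainly in cells without it. Members with at least 2 Tpbg UMIs were compared with members that had none in the 9 libraries with at least 10 cells of each, 307 against 375 cells; library 1 was not used. Of 3940 genes tested, 570 were higher in Tpbg-positive members (14.5%) and 560 lower (14.2%), or 28.7% in either direction. Fgf7 is among the higher genes and is described only. With possible doublets left out 464 genes were called. Tpbg-positive members were deeper (median 6590 UMIs against 5061).

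Tpbg-positive members had high Fgf7 (93.9, 153 and 220.5 CPM against 0, 0 and 5.12; 313 UMIs against 1, a ratio of 356 with an exact 95% counting interval of 63.5 to 14116, which covers counting error only). Tac1 was also higher, at 4076, 4880.0 and 6547 CPM against 3426, 3992 and 4931, with overlap. Stk32b, a serine/threonine kinase, stood at 135, 189 and 252 CPM against 0, 0 and 4.35 (log2 difference 6.35, SE 0.28, adjusted p = 6.4e-27). Il1rapl2, of the interleukin-1 receptor family, had 154 UMIs against 1, a ratio of 175 with a counting interval of 31.0 to 6968. Crym was at 103, 171 and 217 CPM against 0, 0 and 29.3, and Rnf152, a ubiquitin ligase, at 68.0, 98.8 and 118 against 0, 2.81 and 15.4. Dgkg, a diacylglycerol kinase, was higher by 4.01. The lowest library of Tpbg-positive members lay above the highest Tpbg-negative library for Stk32b, Crym, Rnf152 and Dgkg.

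Neuropeptide signalling genes split between the groups. Tac2 stood at 0, 10.1 and 324 CPM in Tpbg-positive members against 1321, 1564 and 2155 in Tpbg-negative members (log2 difference -4.43, SE 0.21, adjusted p = 5e-26); 4.76% and 62.3% of cells had a Tac2 UMI. Crhr2 was at 63.0, 94.4 and 135 CPM against 0, 5.13 and 18.4, while Sstr2 was at 0, 3.58 and 23.6 against 52.1, 94.4 and 134. In the dense-core vesicle list, 5 of 16 were higher and 6 lower. Chgb stood at 2136, 2490.5 and 2858 CPM against 383, 438 and 502, whereas Rab27b stood at 23.8, 37.7 and 53.9 against 306, 371 and 423. Both genes were higher in members as a whole than in Gad-gated Tac1-low cells, which had medians of 605 and 53.4 CPM. Chgb in members without Tpbg and Rab27b in Tpbg-positive members had medians below these.

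C1ql3 stood at 0, 0 and 17.9 CPM against 121, 242 and 337, the largest decrease named (log2 difference -5.63, SE 0.26). Adora1 was at 0, 4.85 and 13.5 against 143, 177 and 278. Fxyd6, a sodium pump regulator, was at 8.99, 14.1 and 53.7 CPM against 471, 646 and 708, with Tpd52l1 and Adra1b, an adrenergic receptor, lower by 4.94 and 4.54. None of these classes overlapped.

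Of 25 transcription factor genes 8 were higher and 9 lower in Tpbg-positive members. Zfhx3 and Zfhx4, zinc finger homeobox genes, stood at 216, 341 and 411 CPM against 16.3, 45.6 and 88.8 and at 119, 127 and 208 against 0, 14.0 and 35.8. Against Gad-gated Tac1-low cells neither was called over all members. Tfap2b, an AP-2 factor of amacrine cells, stood at 39.7, 87.7 and 239 CPM against 754, 942 and 1175, and Fezf2 was lower by 4.57 on the log2 scale. Of 33 recognition and adhesion genes 13 were higher and 10 lower, with the protocadherins Pcdh10 (log2 difference 3.48) and Pcdh17 (2.60) higher and Cbln2 lower (-3.15). Gad2 was at 269.7, 413 and 533 CPM against 100.2, 153 and 227 (log2 difference 1.39, SE 0.10), and Gad1 at 1030.0, 1151 and 1301 against 443, 702 and 963. Slc32a1 was slightly lower (log2 difference -0.26), a call not made with DESeq2 (adjusted p = 0.0620), in batch 3 alone or after thinning. Of 11 immediate early genes 9 were lower, Junb by 1.52, and Jun was the 1 higher; their part in the other differences was not tested.

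**Figure D3:**
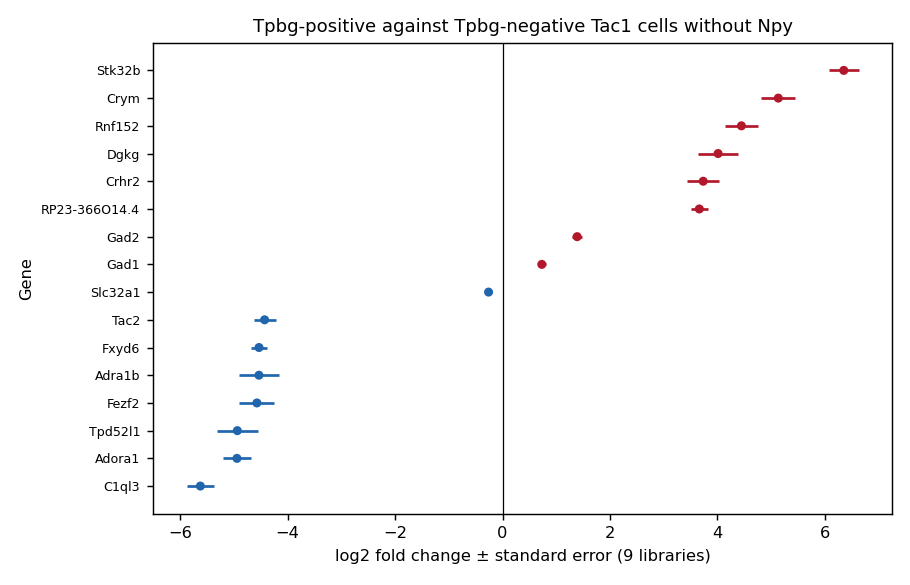
Log2 fold change between Tpbg-positive and Tpbg-negative members (x axis, positive is higher in Tpbg-positive members; bars, standard error; 9 libraries) for genes named by rule, without Tac1, Npy, Tpbg, Fgf7 and Il1rapl2. Of the genes drawn, Stk32b is highest at 6.35, C1ql3 lowest at -5.63, and Slc32a1 lies nearest 0.

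Clustering of the members alone gave 11 sub-clusters of 12 to 110 cells, which are described without a test because the same genes defined them. At lower and higher resolution 9 and 12 were found, so the number is not a count of types. Sub-clusters 1, 2 and 6 held most Tpbg-positive cells, with Tpbg in 95.5, 99.0 and 100% of their cells. Sub-clusters 1 (110 cells) and 2 (104 cells) shared high Tpbg (2695 and 2230 CPM) and Tac1 (6200 and 6061 CPM), and differed in median depth (2494 and 7613.5 UMIs), in Crh, corticotropin-releasing hormone (90.3 and 24.0 CPM), and in Cx3cr1 (5.17 and 94.6 CPM). Cx3cr1 is a chemokine receptor best known from microglia; the levels of the whole microglial list are given above, and the part of microglial RNA in this value was not tested. Sub-cluster 6 (73 cells) had Calb2 at 14002 CPM, Th at 245 CPM and Crym at 291 CPM, with Calb1 and Pcdh10 among its leading genes.

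Tac2 was highest in sub-clusters 5 and 10, where 0 and 4.76% of cells were Tpbg-positive. Sub-cluster 5 (76 cells) had Tac2 in every cell at 3677 CPM, Crabp1 at 1235 CPM and Eomes at 471 CPM, with Fst, Drd5 and Mitf also among its leading genes; its Gad1 was 104 CPM and its Gad2 382 CPM. Sub-cluster 10 (21 cells) had Tac2 at 5532 CPM and Ptgds at 959 CPM. The other members pooled had Ptgds at 29.9 CPM, and pooled Gad-gated Tac1-low cells at 12.7 CPM. Sub-clusters 3, 8 and 9 (84, 51 and 41 cells) had Tfap2b at 1502, 1650 and 1195 CPM, and C1ql3 at 275, 392 and 564 CPM, with Tac2 between 692 and 870 CPM. Sub-clusters 3, 8 and 11 had Npy at 150, 167 and 237 CPM, below the gate. The other sub-clusters lay between 6.31 CPM (sub-cluster 2) and 41.2 CPM (sub-cluster 7). Gad-gated Tac1-low cells, not gated on Npy, stood at 188, 382 and 462 CPM. Calb2 was at 128, 222, 97.5, 106 and 474 CPM in sub-clusters 3, 5, 8, 9 and 11. These levels lay below the 789 CPM of pooled Gad-gated Tac1-low cells, and those of the other sub-clusters lay above it.

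Sub-cluster 4 (84 cells) stood apart in its share of cells with Gad UMIs. Only 8.33% of its cells had at least 2 Gad UMIs, Gad1 was 237 CPM and Gad2 55.7 CPM, and Slc32a1 was 566 CPM. These Gad levels were not the lowest, as Gad1 was 104 CPM in sub-cluster 5 and Gad2 43.8 CPM in sub-cluster 10. Sub-cluster 4 was led by Igfbp7 (1810 CPM), Col25a1 and Gbx2, and its Calb2 was 5229 CPM and its Pax6, a general amacrine gene, 2023 CPM. Its median depth was 2132 UMIs against 5602 for all members. Sub-cluster 1, at 2494 UMIs, had at least 2 Gad UMIs in 86.4% of its cells. Sub-cluster 7 (62 cells) had Vip at 294 CPM, Six3 and Maf, and 51.6% of its cells were Tpbg-positive. Sub-cluster 11 (12 cells, 83.3% from 1 library) was led by Gsg1, Cabp5, Scgn and Neurod4, genes also found in bipolar cells, and was left out with sub-cluster 7 in an added alternative, in which 2759 genes were called against Gad-gated Tac1-low cells.

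**Figure D4:**
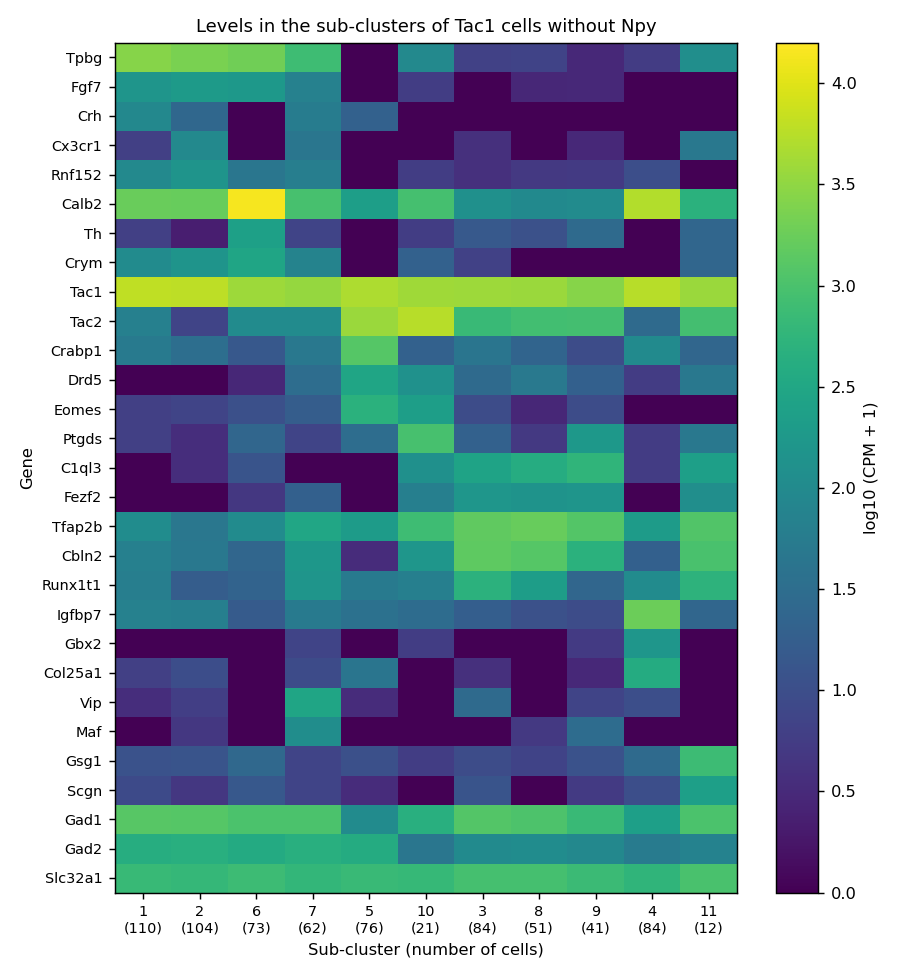
Level of named genes (rows; colour is log10 of CPM plus 1) in the 11 sub-clusters of the members (columns, with the number of cells). Tpbg and Fgf7 fill sub-clusters 1, 2, 6 and part of 7, and Igfbp7 sub-cluster 4. Tac2 is highest in sub-clusters 5 and 10 and lies between 692 and 877 CPM in sub-clusters 3, 8, 9 and 11.

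Across libraries, members made up 1.59 to 2.96% of cells. The share was 1.78% ± 0.148 (SD, n = 4) in batch 3 and 2.37% ± 0.526 (SD, n = 5) in batch 2, a difference of 0.586 percentage points downward that missed the threshold (exact permutation test, two-sided, p = 0.0794; the design allows no p below 0.0159). The highest libraries were 5 and 4 of batch 2, and the lowest was library 10 of batch 3, but the batches overlapped. With only cells of at least 2500 UMIs the difference passed (exact permutation test, p = 0.0159), and with a stricter Tac1 gate it was 0.0324 in the other direction (p = 0.825). The Tac1 level of members was 4931 ± 230.2 CPM (SD, n = 4) in batch 3 and 4211 ± 179.6 CPM (SD, n = 5) in batch 2, and every library of batch 3 lay above every one of batch 2. Since Tac1 chose the cells, this is a description with no test; with the stricter Tac1 gate the difference of 720.4 CPM became 231 CPM. The labels give no other difference between the batches, so batch and any other difference between these libraries cannot be told apart. The mix of cells also differed: cells with Slc6a9 and no Gad were 8.13 to 11.3% of batch 2 libraries and 21.2 to 23.2% of batch 3 libraries. Among cells with at least 2 Gad UMIs and no Slc6a9, members were 3.05 to 4.26% in batch 2 and 2.99 to 3.30% in batch 3. The part of this mix in the difference of shares was not tested.

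**Figure D5:**
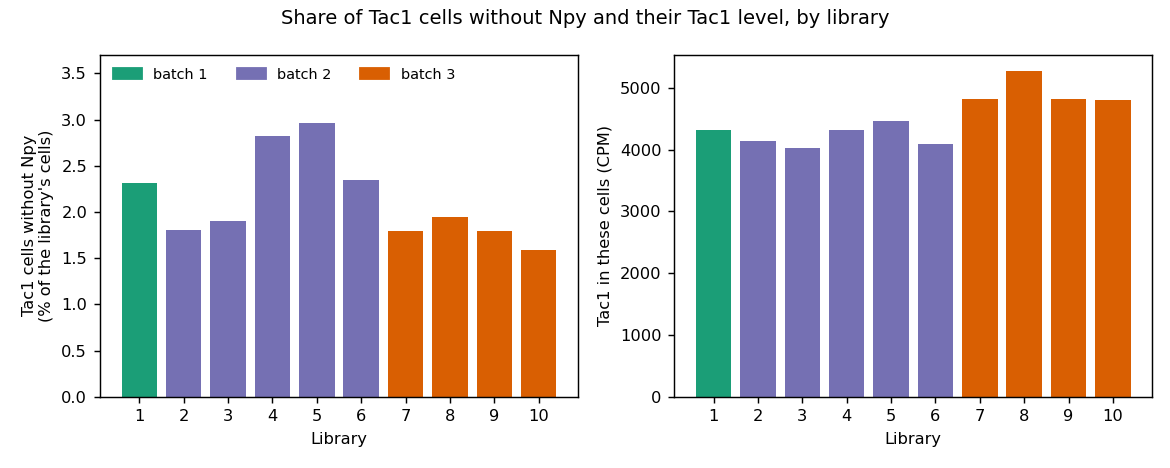
Share of members among the cells of each library (left, %) and Tac1 level in members (right, CPM); bars are single libraries, coloured by batch. Libraries 4 and 5 have the highest shares, and the 4 libraries of batch 3 have the highest Tac1 levels.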

How the data were processed

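Single cells sorted from retinas of 10 libraries were measured with 10x Genomics 3′ chemistry. The authors deposited 1 table of UMI counts per gene and cell, whole numbers with no normalization. Cell Ranger 2.1.0 and the mm10 build are named, per the submitters' processing notes. Gene annotation, cell filters, doublet removal and strand use are not stated there or in the labels. The table held 27933 symbols (7109 without a count) and 171257947 UMIs; the shallowest cell had 601 genes.

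The members, gene lists and marker lists were chosen with earlier results of these data known. Sums of counts by library and class were fitted with edgeR 4.0.16 (TMM, filterByExpr, quasi-likelihood test, library block, adjusted p below 0.05), with DESeq2 1.42.0 as an alternative, after tests on simulated counts. Single values were compared by exact permutation tests. CPM are unadjusted. Genes were named by size of change (at least 50 CPM in the higher class, 30 CPM for list genes, one direction in every library); further list members and sub-cluster genes were named after their values were seen, and some genes that met the rule are not reported here. Members were clustered on 800 variable genes and 15 components (leidenalg 0.10.2). Positions come from GENCODE M21. Counting intervals are 95% and cover counting error only. Alternatives were other gates, depths, filters, normalization, single batches and leaving out each library.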

Additional observations from a re-analysis of the deposited data

Results flagged for a closer look

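In 61 groups of libraries of 1 batch, the highest or lowest library was compared with the rest of its batch by its gap over the batch's range, and 4 stood apart; chance flags about 1 in 20 groups. Tac1 in members was 5276 CPM in library 8 of batch 3, against 4807 to 4823 CPM in the other 3. Tacr3 was 8.83 CPM in library 2 of batch 2, against 0 to 1.71 CPM in the others. RP23-366O14.4 was 111 CPM in library 7 of batch 3, against 179 to 192 CPM. Nr4a2 was 2.59 CPM in the same library, against 0 in the other 3 of its batch. In members of library 7, 3 counts are worth 7.76 CPM, so the Nr4a2 value rests on fewer than 3 counts. In members of library 2, 3 counts are worth 6.62 CPM, so the Tacr3 value also rests on few counts.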

How the results depend on the processing

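All alternatives below keep the direction of the comparison unless stated, and the cause of each move was not tested. Against Gad-gated Tac1-low cells, 2624 genes were called, and 1443 in batch 3 alone, 1680 with possible doublets left out, 1697 with a stricter Tac1 gate and 986 with cells thinned to 2000 UMIs. Against Tac1 cells with Npy, 528 were called, and 325 with DESeq2, 334 in batch 3 alone, 1028 with no filter on low counts, 238 with the stricter gate and 103 after thinning. Between Tpbg-positive and Tpbg-negative members, 1130 were called, and 622 with DESeq2, 613 in batch 3 alone, 1735 with no filter, 464 with possible doublets left out, 486 with the stricter gate and 265 after thinning. Without the library as a replicate block the 3 counts were 2057, 405 and 972. Leaving out each library in turn gave 2372 to 2716, 452 to 535 and 1017 to 1103 calls. The batch difference in share, -0.586 percentage points, was -1.16 with a looser Tac1 gate (p = 0.0476), -0.454 with Gad required (p = 0.0317), -0.696 in cells of at least 2500 UMIs and 0.0324 with the stricter gate, and ranged from -0.727 to -0.437 with single libraries left out, passing only without library 8 (-0.641, p = 0.0357; all p by exact permutation test). The Tac1 difference of 720.4 CPM was 231 CPM with the stricter gate and 605 to 784 CPM with libraries left out. The Fgf7 share was 12.6% after thinning. Of the values of named genes under the alternatives, 1505 of 1526, 425 of 433 and 410 of 413 kept direction and call in the 3 comparisons. Sstr2 turned to -0.51 against Gad-gated Tac1-low cells with possible doublets left out. Slc32a1 against Tac1 cells with Npy, not called in any setting, lay at -0.0076 with Gad required, -0.076 in batch 2 alone, -0.061 with at least 20 cells per class, -0.13 with the stricter gate and between -0.030 and 0.026 with single libraries left out. Leaving out sub-clusters 7 and 11, an alternative chosen after the data were seen, gave 2759, 537 and 1124 calls. Depth limits Tacr1 and Tacr3, with 51 and 6 UMIs in members and 46 and 2 in Tac1 cells with Npy: 1 count was worth more than 1 CPM in members of each library.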
